A study of Arabidopsis thaliana with 8 samples.

Results

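The 10 genes described here are the heat shock factors HSFA9 (AT5G54070) and HSFA2 (AT2G26150) and 8 heat shock proteins of Arabidopsis thaliana. The heat shock proteins are HSP101 (AT1G74310), HSP90.1 (AT5G52640), HSP70-4 (AT3G12580), HSP17.6II (AT5G12020), HSP17.6A (AT5G12030), HSP17.4 (AT3G46230), HSP21 (AT4G27670) and HSP22.0 (AT4G10250). They were taken by identifier from the 33602 gene models counted in every library. The study asked which genes differ between the epidermis and the mesophyll of the cotyledons of developing embryos, and cut both tissues out of sectioned seeds by laser microdissection. Each tissue was sequenced in 4 replicates, numbered 1 to 4, which gave 8 libraries of wild type Col-0 at Boyes stage 6.30. Plants of both groups grew at 18 to 22 °C with 16 h of light and 8 h of dark, and the labels name no treatment, heat included. For growth, the methods of the study give another day length and a warmer day. They give the embryos as linear in one place and as torpedo in another. Per these methods the sections of a replicate came from siliques of 1 plant, and harvest dates differed among replicates.

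Heat shock factors are transcription factors that bind heat shock elements, which are inverted repeats of the letters GAA, and switch on genes of chaperones. Chaperones keep other proteins folded: small heat shock proteins hold unfolding proteins, HSP70 and HSP90 help them refold or mature, and HSP101 pulls them out of aggregates. In Arabidopsis leaves most of these genes are silent until heat, while in the seed some of them come on during maturation without any heat. HSFA9 is the heat shock factor known from maturing seeds, where it acts under the maturation regulator ABI3, and HSFA2 is the factor that heat induces and that prolongs the heat response. ABI3 and its relatives FUS3 and LEC2 bind the RY element, whose core is CATGCA.

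The stretches upstream of 5 of the genes are shown because they hold, or lack, the letters of these elements, and because HSP17.6II and HSP17.6A are neighbours on chromosome 5. Each run is the 300 bases before the annotated gene start, read 5′ to 3′ on the strand of the gene from the RefSeq sequence of the TAIR10.1 build. Capitals mark GAANNTTC or TTCNNGAA (a pair of heat shock element units, with longer runs where pairs overlap) and CATGCA or its reverse complement TGCATG.
HSFA9, chr5:21943683-21943982, forward strand: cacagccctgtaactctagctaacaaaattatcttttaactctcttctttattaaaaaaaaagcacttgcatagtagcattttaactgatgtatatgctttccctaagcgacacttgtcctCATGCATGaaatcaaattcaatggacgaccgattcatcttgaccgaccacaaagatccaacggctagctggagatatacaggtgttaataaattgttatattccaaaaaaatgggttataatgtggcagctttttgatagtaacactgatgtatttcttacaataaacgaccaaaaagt
HSFA2, chr2:11135324-11135623, forward strand: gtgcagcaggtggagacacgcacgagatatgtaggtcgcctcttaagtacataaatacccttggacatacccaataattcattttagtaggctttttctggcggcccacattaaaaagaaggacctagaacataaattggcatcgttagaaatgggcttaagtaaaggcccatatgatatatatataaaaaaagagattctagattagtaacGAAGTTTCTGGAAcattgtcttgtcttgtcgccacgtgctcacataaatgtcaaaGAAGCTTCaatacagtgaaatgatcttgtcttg
HSP17.4, chr3:16984868-16985167, reverse strand: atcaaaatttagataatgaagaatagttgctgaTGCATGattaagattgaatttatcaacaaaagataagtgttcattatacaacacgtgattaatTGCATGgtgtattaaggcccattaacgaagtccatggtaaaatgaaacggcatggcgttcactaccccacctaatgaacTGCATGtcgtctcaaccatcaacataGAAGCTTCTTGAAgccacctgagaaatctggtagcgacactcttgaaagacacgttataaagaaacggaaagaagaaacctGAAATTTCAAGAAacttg
HSP17.6II, chr5:3883112-3883411, reverse strand: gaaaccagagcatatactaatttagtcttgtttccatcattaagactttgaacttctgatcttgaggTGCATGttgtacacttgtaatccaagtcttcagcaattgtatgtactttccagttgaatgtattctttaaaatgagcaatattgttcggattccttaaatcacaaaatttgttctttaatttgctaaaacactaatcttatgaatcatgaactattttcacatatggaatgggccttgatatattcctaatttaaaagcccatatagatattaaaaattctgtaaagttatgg
HSP17.6A, chr5:3884839-3885138, reverse strand: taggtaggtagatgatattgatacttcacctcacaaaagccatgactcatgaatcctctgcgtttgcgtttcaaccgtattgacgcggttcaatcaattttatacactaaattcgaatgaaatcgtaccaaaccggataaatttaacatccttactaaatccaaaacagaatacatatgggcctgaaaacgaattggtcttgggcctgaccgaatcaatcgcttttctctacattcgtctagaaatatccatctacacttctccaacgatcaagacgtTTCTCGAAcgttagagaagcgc

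Within these windows HSFA9 had 2 RY cores, which overlap in 1 stretch, and no heat shock pair. HSP17.4 had 3 RY cores and 4 heat shock pairs, which form 2 triple units, that is, places where a GAANNTTC and a TTCNNGAA overlap. HSFA2 had 3 heat shock pairs with 1 triple unit and no RY core. The class II neighbours differed: HSP17.6II had 1 RY core and no pair, and HSP17.6A had 1 pair and no RY core. Of the other members, HSP90.1 had 2 pairs with 1 triple unit, HSP21 had 1 pair, HSP22.0 had 1 RY core, and HSP101 and HSP70-4 had neither. The annotated transcript of HSP90.1 holds its 2103 coding bases alone, so its window may include transcribed bases. Among 27443 protein-coding genes, either pair was found in 19.3% of such windows, a triple unit in 0.485% and CATGCA in 10.3%, both strands searched. A match of letters was not tested as a binding site. In the 500 bases before the start codon, HSP101 had 1 pair, HSP70-4 had 2 pairs with 1 triple unit and HSP22.0 had 2 pairs with 1 triple unit. HSP17.6II and HSP17.6A had 1 pair each there, so these neighbours did not differ in pairs in this window. A pair was found in 33.8% of all such windows.

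The genes lie on all 5 chromosomes. HSFA9 (chromosome 5, 21943983 to 21945651, forward strand) has 3 exons and an antisense neighbour, AT5G54075, that overlaps it. HSP17.6II (chromosome 5, 3882231 to 3883111, reverse strand) and HSP17.6A (3883957 to 3884838, reverse strand) have 1 exon each, and 845 bases lie between them. Their coding sequences were identical over 86.1% of the alignment, yet no stretch of 100 bases of either transcript occurred in another transcript of the genome, so their read pairs could be told apart at this length. HSP17.4 (chromosome 3, 16984118 to 16984867, reverse strand) shared 56.6% of its stretches of 100 bases with AT3G07365, which overlaps it on the other strand. The libraries do not mark strand, so pairs from HSP17.4 and this antisense gene cannot be told apart, and the value of HSP17.4 is uncertain. HSFA9 and HSFA2 were identical over 51.8% of their aligned coding sequence.

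The libraries held 27676412 to 36685627 counted read pairs, and 3 pairs corresponded to 0.0818 to 0.108 CPM, the usual scaling of counts to the size of the library. Levels are given as CPM scaled further by TMM (trimmed mean of M values), which corrects for unequal composition of libraries. Of all models, 15794 reached 1 CPM in at least 4 libraries and were tested by edgeR's quasi-likelihood F test with the replicate number as a block. At a Benjamini-Hochberg adjusted p of 0.05 or less, 171 genes (1.08%) were called, 155 higher (0.981%) and 16 lower (0.101%) in epidermis. As a check of the labels, 6 of 6 epidermis markers were called higher in epidermis and 3 of 6 tested mesophyll markers were called lower. In epidermis, the summed level of 14 endosperm markers was 202 to 296 CPM against 38.4 to 91.2 in mesophyll, led by SUC5, a sucrose transporter of the endosperm. From the endosperm factor MYB118, the study proposes that endosperm probably contaminated its epidermis samples, which it calls enriched rather than strictly specific. The summed level of 13 seed coat markers was 17.9 to 63.6 CPM against 8.29 to 18.4. That of 8 genes of rapid stress and touch was 32.7 to 349 CPM against 2.69 to 12.1, led by the zinc finger gene ZAT12.

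HSFA9 was all but absent. It had 1 read pair in epidermis replicate 4 and 0 in each of the other libraries, that is 0 pairs in 7 of 8. The limit that a count of 0 allows was 3 pairs, or at most 0.108 CPM. This limit covers counting error only, not transcripts lost before sequencing. Of 68 heat shock genes outside the members, 10 had 0 pairs in some library and over 100 in another. HSP21, the small heat shock protein of the chloroplast, had 0 pairs in all 8 libraries, and HSP22.0, that of the endoplasmic reticulum, had 1 pair in epidermis replicate 1 and 0 in the others. No level or difference between the tissues was detectable for these 3 genes at this depth, and they were not tested. The regulators above HSFA9 were present at the same time: ABI3 was 160.8 ± 24.4 CPM in epidermis and 189.3 ± 15.67 CPM in mesophyll (SD, n = 4). The log2 fold change of ABI3, epidermis over mesophyll, was −0.24 ± 0.16 (SE), and edgeR's adjusted p was 0.672.

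HSP17.4, a cytosolic small heat shock protein of class I that is known from dry seeds, was near the floor. Its 13, 4, 3 and 2 pairs in epidermis replicates 1 to 4 and 3, 3, 3 and 2 pairs in mesophyll correspond to 0.0643 to 0.381 CPM. Only epidermis replicate 1 lay clearly above 3 pairs. Pooled over libraries, the ratio of epidermis to mesophyll was 1.97 with a 95% interval of 0.914 to 4.49, which covers counting error only and includes equal levels. It was under the filter and not tested, and reads of the overlapping antisense gene may be among its pairs.

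HSP17.6II, a cytosolic small heat shock protein of class II, was found almost only in epidermis libraries. It had 467, 458, 158 and 533 pairs in epidermis replicates 1 to 4, or 13.7, 16.3, 5.13 and 17.9 CPM. Mesophyll libraries held 11, 0, 0 and 2 pairs, or 0.391, 0, 0 and 0.0643 CPM. The lowest epidermis library lay above the highest mesophyll library, but the gene passed the filter only through its 4 epidermis libraries, which fixes that order. The means were 13.3 ± 5.70 and 0.114 ± 0.187 CPM (SD, n = 4), and the ratio of the pooled levels was 122 (95% interval for counting error 71.2 to 230). This ratio leans on 1 mesophyll library: without mesophyll replicate 1, which held 11 of the 13 pairs, it was 611 (169 to 5053). The fitted log2 fold change was 7.99 ± 1.52 (SE) with an unadjusted p of 0.000699, and edgeR's adjusted p of 0.0557 missed the threshold. The call turned on the fit: adjusted p was 0.0294 without the replicate block and 0.0398 without the filter, and ranged from 4.73e-11 to 0.178 over 17 alternatives, 7 of which called it. In bulk tissue, fewer cells that express a gene and less RNA per cell cannot be told apart.

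HSP17.6A, its neighbour and also of class II, was higher on average in epidermis, with a wider spread. It had 355, 998, 478 and 196 pairs in epidermis replicates 1 to 4, which is 10.4, 35.6, 15.5 and 6.59 CPM. In mesophyll it had 1, 84, 65 and 31 pairs, which is 0.0355, 2.46, 2.16 and 0.997 CPM. The groups did not overlap, with the lowest epidermis library above the highest mesophyll library, as for 5.50% of all genes tested. The means were 17.0 ± 12.9 and 1.41 ± 1.11 CPM (SD, n = 4), and the pooled ratio was 11.01 (9.45 to 12.9, counting error only), or 7.19 without epidermis replicate 2. The fitted log2 fold change was 3.94 ± 1.05 (SE), with an unadjusted p of 0.00536 and an adjusted p of 0.158 by edgeR. It was not called, and 3 of 21 alternatives called it, with adjusted p from 6.16e-05 to 0.484.

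**Figure D1:**
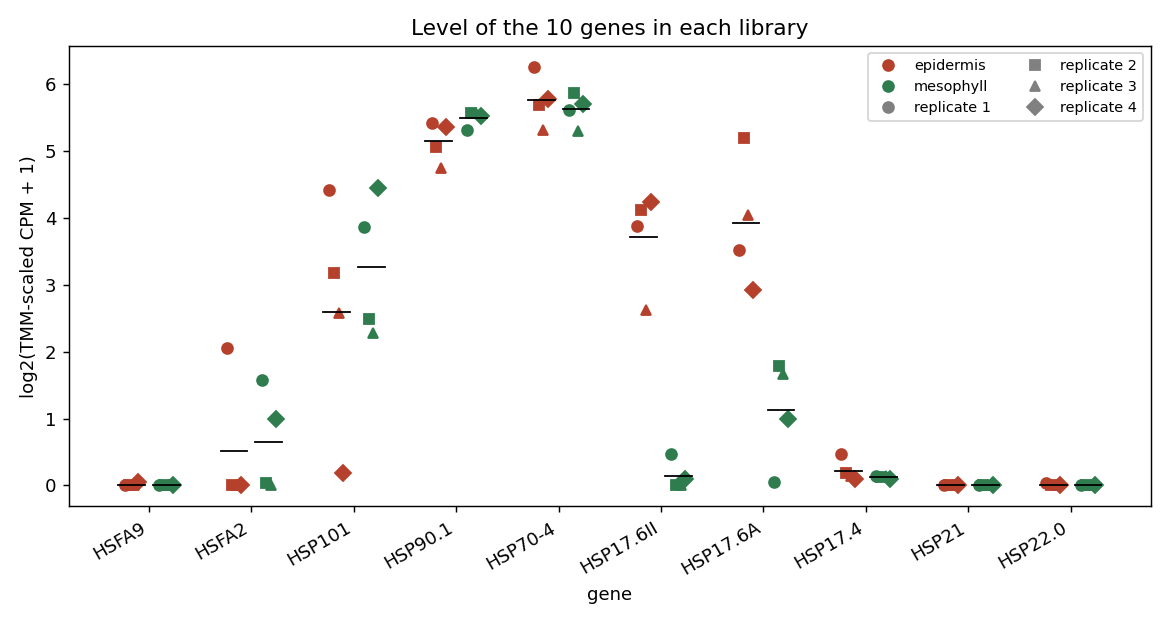
Level of each of the 10 genes in every library, as log2 of TMM-scaled CPM plus 1 (vertical axis), with epidermis in red and mesophyll in green, a symbol for each replicate number and a black line at the mean of the 4 log2 values. HSP17.6II and HSP17.6A lie higher in all 4 epidermis libraries, HSP90.1 and HSP70-4 overlap, HSP101 and HSFA2 spread widely, and HSFA9, HSP21 and HSP22.0 lie at 0 or 1 pair.

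Both class II genes were higher in the epidermis libraries, an order that the filter fixed for HSP17.6II, but in proportions that varied among these libraries. Of their summed pairs, HSP17.6II made up 56.8% (95% exact binomial interval 53.3 to 60.2) in epidermis replicate 1, 31.5% (29.1 to 33.9) in replicate 2, 24.8% (21.5 to 28.4) in replicate 3 and 73.1% (69.7 to 76.3) in replicate 4. In mesophyll it made up 11 of 12 pairs in replicate 1, 0 of 84 in replicate 2, 0 of 65 in replicate 3 and 2 of 33 in replicate 4. The exact binomial upper bound was 4.30% for the 0 of 84 pairs and 5.52% for the 0 of 65, and the limit of 3 pairs that a count of 0 allows was 3.57% and 4.62%. Mesophyll replicate 1 thus held nearly all its class II pairs as HSP17.6II, while the other mesophyll libraries held nearly all of them as HSP17.6A. Reads made by PCR are no independent molecules, and the intervals cover counting error only. The ranges per library of the marker sums stand beside these genes: epidermis replicate 2, the highest for HSP17.6A, was also the highest for the rapid stress and touch genes, at 349 CPM against 32.7 to 80.8 in the other epidermis libraries. Epidermis replicate 4 was next in the stress sum, at 80.8 CPM, and the lowest of its tissue in HSP17.6A, at 6.59 CPM. Mesophyll replicate 1 was the highest of its tissue in the stress sum, at 12.1 CPM, and the lowest in HSP17.6A, at 0.0355 CPM. Epidermis replicates 1 to 4 had endosperm sums of 296, 252, 202 and 276 CPM, and replicate 3 was the lowest in this sum and in HSP17.6II. Replicate 1, the highest in this sum, was below replicates 2 and 4 in HSP17.6II, at 13.7 against 16.3 and 17.9 CPM. In every library of epidermis the sums of both lists lay above every library of mesophyll. The sum of 6 vascular markers was 13.3, 6.45, 112 and 181 CPM in these epidermis libraries against 138 to 256 in mesophyll. Of the defining markers, 7 of 14 endosperm, 2 of 13 seed coat and 5 of 8 rapid stress genes passed the filter. Their part in the class II levels was not tested.

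**Figure D2:**
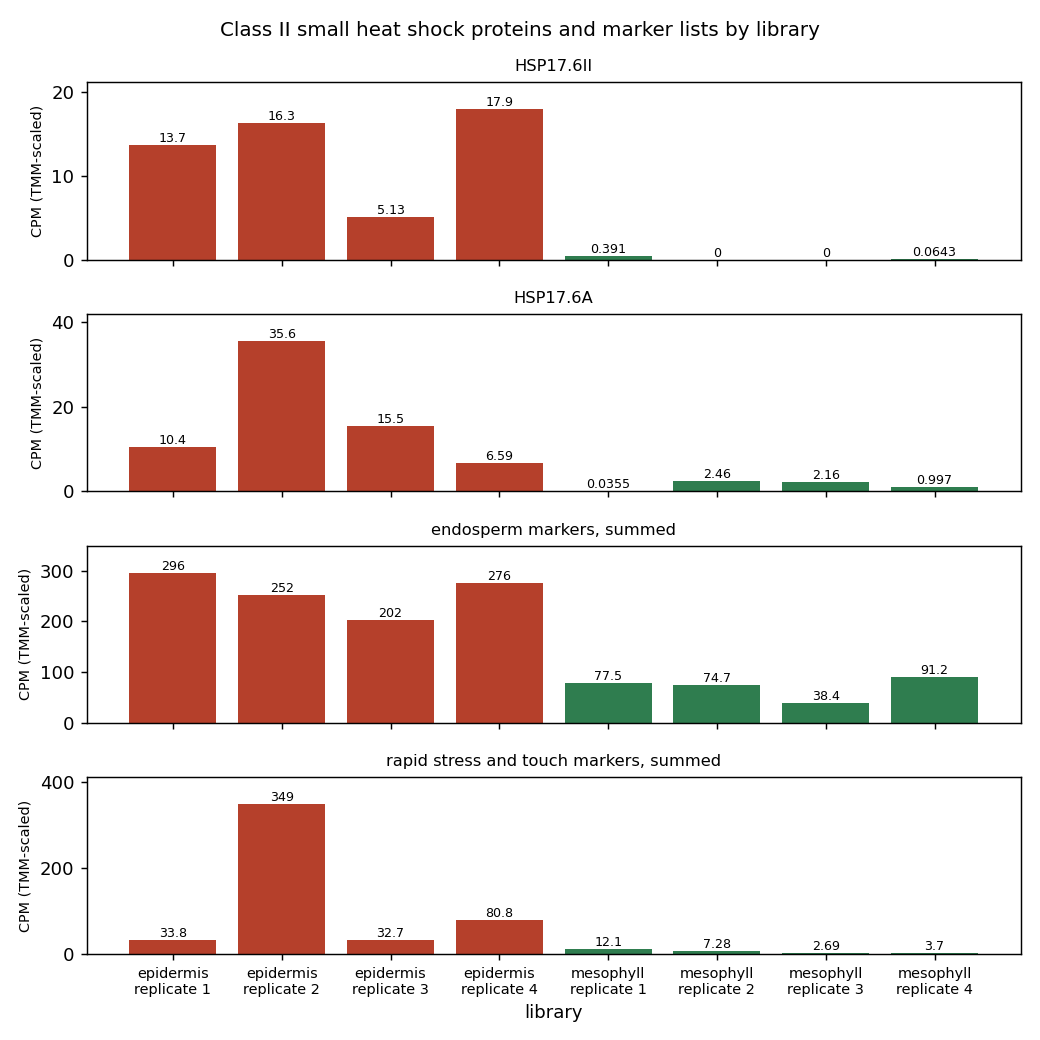
TMM-scaled CPM of HSP17.6II, HSP17.6A and the summed endosperm and rapid stress and touch markers in each library (bars, epidermis red, mesophyll green, value above each bar). All 4 quantities were higher in the epidermis libraries, and epidermis replicate 2 was the highest in HSP17.6A (35.6) and in the stress sum (349). Epidermis replicate 4 was next in the stress sum (80.8) and the lowest of its tissue in HSP17.6A (6.59).

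HSP101, the disaggregase of the cytosol, differed more among replicates than between tissues. It had 691, 225, 153 and 4 pairs in epidermis replicates 1 to 4 and 382, 158, 116 and 646 pairs in mesophyll. In CPM these were 20.3, 8.02, 4.97 and 0.134 in epidermis and 13.6, 4.62, 3.85 and 20.8 in mesophyll. Epidermis replicate 4 was nearly without the transcript, mesophyll replicate 4 had the highest level of all, and the groups overlapped. The log2 fold change was −0.40 ± 1.35 (SE) and edgeR's adjusted p was 0.954. Its sign turned without the pair of libraries numbered 4, to 0.58, and with limma-voom, to 0.22. The SD of its log2 level within tissue was larger than that of 96.8% of the genes tested.

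HSFA2, the heat-induced factor, was present in 3 libraries and all but missing from 5. It had 107, 0, 0 and 0 pairs in epidermis and 56, 1, 0 and 31 pairs in mesophyll, which is 3.14 CPM in epidermis replicate 1, 1.99 in mesophyll replicate 1 and 0.997 in mesophyll replicate 4. The level split the replicates of either tissue and not the tissues from each other, and the gene was under the filter. Its pooled ratio of 1.195 had an interval of 0.893 to 1.60 for counting error. The 3 libraries with more than 1 HSFA2 pair were the 3 highest in HSP101, at 20.3, 13.6 and 20.8 CPM against 0.134 to 8.02 in the other 5. APX2, an ascorbate peroxidase gene known as a target of HSFA2, had 72 pairs in epidermis replicate 1 and 0 in each of the other 7 libraries. GOLS1, of the same list as APX2, went the other way. It had 10 and 11 pairs in mesophyll replicates 2 and 3, where HSFA2 had 1 and 0, and 0 pairs elsewhere. This reading over 8 libraries of 2 tissues is a description, and these libraries, APX2 and GOLS1 were picked after their values were seen.

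**Figure D3:**
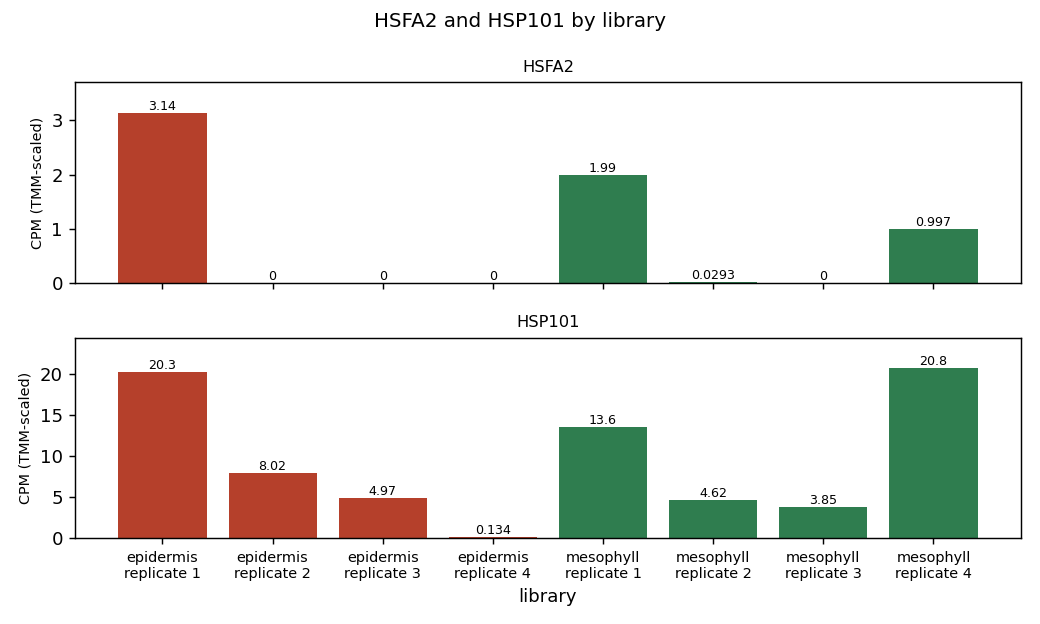
TMM-scaled CPM of HSFA2 (upper panel) and HSP101 (lower panel) in each library (bars, epidermis red, mesophyll green, value above each bar). Epidermis replicate 1 and mesophyll replicates 1 and 4 had both the HSFA2 transcript (3.14, 1.99 and 0.997) and the highest HSP101 levels (20.3, 13.6 and 20.8).

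HSP90.1 and HSP70-4, heat-induced genes of the cytosolic HSP90 and HSP70 families, were the 2 abundant and even members. The 4 epidermis libraries held HSP90.1 at 41.5, 32.3, 25.9 and 39.9 CPM, and the 4 mesophyll libraries at 38.5, 46.5, 46.3 and 45.1 CPM. The ranges overlapped only through mesophyll replicate 1, which was the low one of its group. The means were 34.9 ± 7.23 and 44.1 ± 3.77 CPM (SD, n = 4), the log2 fold change was −0.36 ± 0.28 (SE) and edgeR's adjusted p was 0.725. They held HSP70-4 at 75.3, 50.7, 38.8 and 53.7 CPM and at 47.9, 57.1, 38.2 and 51.2 CPM, with overlapping groups. Its means were 54.6 ± 15.2 and 48.6 ± 7.93 CPM, its log2 fold change was 0.14 ± 0.24 (SE) and its adjusted p was 0.898. Without replicate 1, the highest epidermis library, the log2 fold change of HSP70-4 was −0.02. Their spread within tissue was larger than that of only 8.7% (HSP90.1) and 18.8% (HSP70-4) of the genes tested.

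Within a library, both genes can be set against the cytosolic members of their families, which does not depend on scaling. Pairs with equally good multiple matches were dropped, which can raise these shares. HSP90.2, HSP90.3 and HSP90.4 shared 7.4, 10.8 and 5.36% of their stretches of 100 bases with each other. HSC70-3 shared 13.3% with AT3G09430, and HSP90.1 and HSP70-4 shared none. HSP90.1 made up 4.90, 3.17, 1.58 and 2.14% of the pairs of the 4 cytosolic HSP90 genes in epidermis replicates 1 to 4 and 2.89, 3.55, 3.69 and 3.48% in mesophyll. HSP70-4 made up 4.82, 3.40, 1.67 and 2.12% of the pairs of the 6 cytosolic HSP70 genes in epidermis and 2.09, 2.67, 2.03 and 2.49% in mesophyll. In epidermis both shares had the same order of libraries, from replicate 1 down to replicate 3, and in replicate 1 they were over 4% in both families. That order rests on both parts of the ratio, since the constitutive genes varied too. In epidermis replicates 1 to 4 HSC70-1 was 1228, 1178, 1972 and 1989 CPM and HSP90.2 was 374, 455, 826 and 835 CPM. The HSP90.1 share ranged over 1.58 to 4.90% in epidermis and over 2.89 to 3.69% in mesophyll, so epidermis enclosed the mesophyll range. The constitutive genes were far above them: HSC70-1 was 1178 to 1989 CPM and HSP90.2 was 373.6 to 835 CPM over the 8 libraries. Their log2 fold changes were −0.21 ± 0.20 and −0.17 ± 0.25 (SE), with adjusted p of 0.791 and 0.878 by edgeR.

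**Figure D4:**
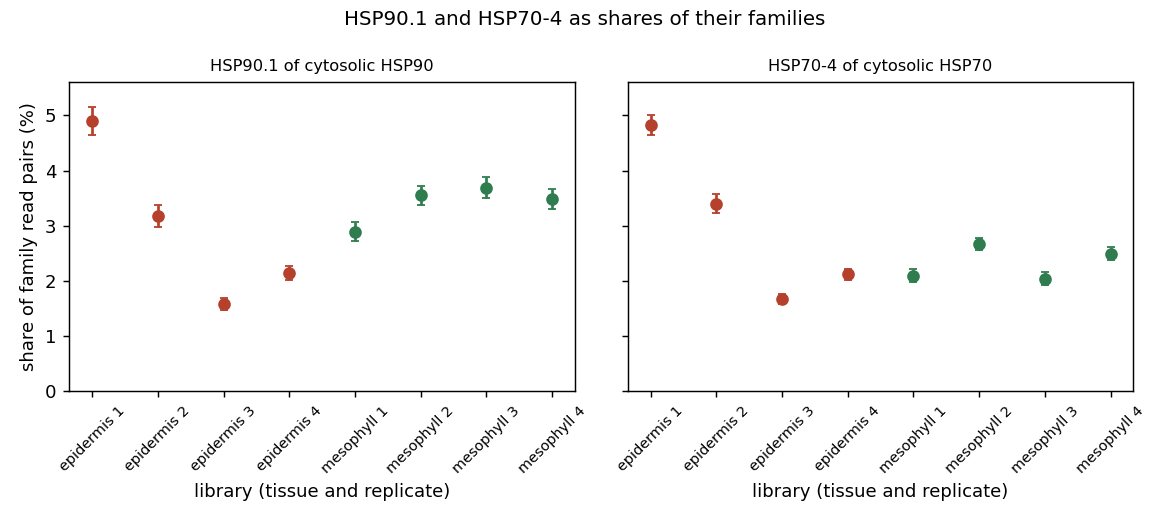
Read pairs of HSP90.1 as a percentage of those of the 4 cytosolic HSP90 genes (left) and of HSP70-4 as a percentage of those of the 6 cytosolic HSP70 genes (right) in each library, with 95% exact binomial intervals (counting error only). Epidermis (red) runs from 1.58 to 4.90% on the left and from 1.67 to 4.82% on the right, a wider range than mesophyll (green) in both.

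Per kilobase of gene model, so that levels can be set against each other, the order in epidermis was HSP17.6A (27.0 CPM per kb), HSP70-4 (23.9), HSP17.6II (18.9), HSP90.1 (14.1), HSP101 (2.64), HSFA2 (0.564) and HSP17.4 (0.238). In mesophyll the order was HSP70-4 (21.3 CPM per kb), HSP90.1 (17.82), HSP101 (3.38), HSP17.6A (2.24), HSFA2 (0.542), HSP17.6II (0.162) and HSP17.4 (0.124). In epidermis HSP17.6A and HSP17.6II overlapped each other and both other genes among the first 4. Every HSP70-4 library lay above every HSP90.1 library. All libraries of these 4 genes lay above those of HSP101. HSP101, HSFA2 and HSP17.4 each overlapped the next in the order. In mesophyll HSP70-4 and HSP90.1 overlapped each other and lay above HSP101 in every library, and from HSP101 on each gene overlapped the next. HSP17.6A thus stood in the abundant group in epidermis and apart from it in mesophyll.

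Of the 10 genes, 5 passed the filter, 0 were called and 2 (HSP17.6II and HSP17.6A) had an unadjusted p under 0.05. Over all genes tested, 1.08% were called and 1867 (11.8%) had an unadjusted p under 0.05. The groups of HSP17.6A did not overlap, epidermis above, which held for 5.50% of all genes, with 4.51% the other way round, and those of HSP17.6II were kept apart by the filter. Of the members, 2 were called higher by the likelihood ratio test (3.53% of all genes), 2 by the bias-adjusted quasi-likelihood test (2.99%), 2 by DESeq2 (4.98%) and 1 by limma-voom (2.11%). HSP17.6II was among the genes called by each of these. As it passed the filter only through its 4 epidermis libraries, its calls and its unadjusted p cannot be set against those shares. The median log2 fold change of the 5 tested members was 0.14, and that of all genes tested was −0.04. By replicate number 0 of the 15794 genes were called by the quasi-likelihood test, with 367 at an unadjusted p under 0.05 and 28 called by the likelihood ratio test. That test looks for differences that both tissues share, and members under the filter were not in it.

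The wider heat shock gene set gave 0 calls as well. Outside the members, 68 heat shock factors, chaperones and co-chaperones were listed and 46 were tested. By edgeR 3 of the 46 had an unadjusted p under 0.05, where all genes had 1867 of 15794. DESeq2 called 2 of the 46 as higher in epidermis, which is near the share of all genes that it called higher, 786 of 15794 (4.98%). The 2 were HSFB2A, a factor of the repressing class B, and DREB2A, which links drought and heat responses. HSFB2A was 1.70, 33.7, 8.67 and 9.51 CPM in epidermis and 0.0355, 4.91, 0.398 and 7.62 CPM in mesophyll, and edgeR's adjusted p was 0.282. DREB2A was 1.14, 32.0, 1.59 and 6.32 CPM in epidermis and 0, 1.46, 0.0995 and 5.47 CPM in mesophyll, and its adjusted p was 0.339. In both genes epidermis replicate 2 was the highest library, as for the stress and touch genes, and both were named after their values were seen. In mesophyll both were highest in replicate 4, at 7.62 and 5.47 CPM, and the stress sum in replicate 1, at 12.1 CPM.

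Among 19 other heat shock factors, 12 were tested and the median log2 fold change was 0.01, with 6 positive and 6 negative. The most abundant were HSFB4, known as SCHIZORIZA from the root, at −0.90 ± 0.37, and HSFA1D and HSFA1B, of the class that starts the heat response, at −1.09 ± 0.74 and −0.90 ± 0.72 (log2 fold change ± SE, adjusted p 0.384 to 0.740 by edgeR). HSFB4 was 7.56 to 34.1 CPM in epidermis and 21.3 to 46.65 CPM in mesophyll, beside the single pair of HSFA9. Among 14 other small heat shock proteins, 5 were tested, with a median of −0.83 and 4 of 5 negative. HSP26.5 was at 18.2, 3.78, 6.30 and 0 CPM in epidermis and at 15.35, 5.59, 11.4 and 6.59 CPM in mesophyll, and it had 0 pairs in epidermis replicate 4, the library with 4 pairs of HSP101. HSP17.4-CIII and HSP17.8 lay at 1.24 to 5.67 CPM and at 0 to 5.81 CPM over all libraries. In each of these 3 the libraries of both tissues overlapped.

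Among 20 other HSP100, HSP90 and HSP70 genes, 17 were tested with a median log2 fold change of −0.09, and among 15 co-chaperones and heat response genes 12 were tested with a median of −0.05. HSP90.3 was at 0.18 ± 0.20, the J-domain partner of HSP70, J3, at 0.24 ± 0.18, the heat shock factor binding protein HSBP at −0.13 ± 0.20 and the immunophilin ROF1 at −0.16 ± 0.19. Their adjusted p values were 0.705 to 0.885 by edgeR. In the family list as in HSP90.1 and HSP70-4, no difference between the tissues passed the test.

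Of 5 maturation regulators, all tested, 1 was called. LEC1, a subunit of the NF-Y factor that drives embryo maturation, was 87.5, 119, 125 and 158 CPM in epidermis and 26.9, 40.2, 18.7 and 12.6 CPM in mesophyll. It rose by 2.40 ± 0.38 on the log2 scale (SE, edgeR's adjusted p = 0.0268), and the adjusted p ranged from 1.9e-09 to 0.154 over 22 alternatives. Without replicates 1 the log2 fold change was 2.66 (adjusted p 0.0858) and without replicates 3 it was 2.27 (0.154), of similar size but past the threshold in neither. The endosperm sum was higher in the same libraries, at 202 to 296 against 38.4 to 91.2 CPM, and its part in the LEC1 level was not tested. FUS3 was 106.7 to 210.0 CPM in epidermis against 60.4 to 89.2 CPM in mesophyll. Its groups did not overlap, epidermis above, as for 5.50% of all genes tested. Its log2 fold change was 1.05 ± 0.27, with an unadjusted p of 0.00443 and an adjusted p of 0.140 by edgeR. The study, which used a likelihood ratio test, lists FUS3 and LEC1 among its differentially expressed transcription factors. LEC2 was at 1.23 ± 0.72 (adjusted p 0.613). ABI5, which acts late in maturation, was 0.235 to 6.99 CPM in epidermis and 5.94 to 14.1 CPM in mesophyll, at −2.69 ± 1.14 with an adjusted p of 0.408.

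**Figure D5:**
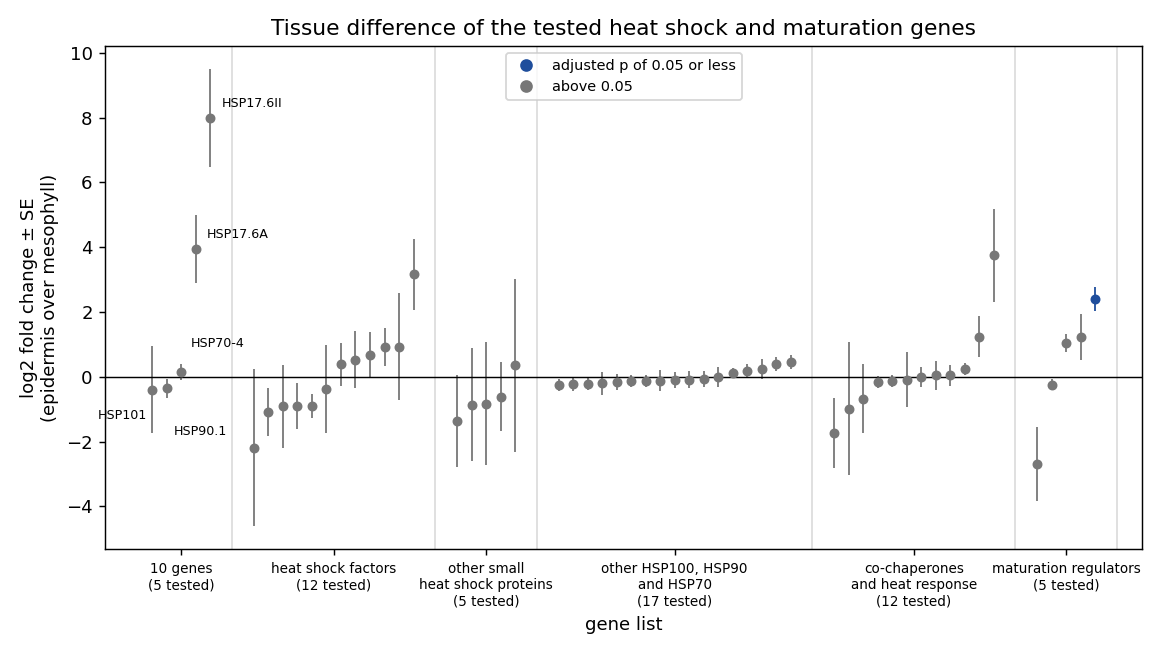
Log2 fold change of epidermis over mesophyll with its standard error for the tested genes of the 10 members and of 5 lists, sorted within each list, with genes at an adjusted p of 0.05 or less (edgeR quasi-likelihood) in blue. LEC1 (2.40) was the called gene; HSP17.6II (7.99) and HSP17.6A (3.94) lay farthest from 0 and were not called.

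The genes whose pattern over the 8 libraries was most like that of HSP70-4, the most abundant member, were AT4G22000, CEN2 (a centrin), AT2G23090, ACBP6 (an acyl-CoA binding protein) and AT1G51650. Their root mean square differences from it in log2(CPM + 1), each gene centred on its own mean, were 0.10 to 0.13 among 13581 genes with a mean of at least 5 CPM. Among the members, HSP90.1 was nearest to HSP70-4 at 0.32, HSP17.6II and HSP17.6A differed from each other by 1.07, and HSP101 differed by 1.26 or more from each other tested member. The same measure could not be taken for HSFA9, which was under the filter.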

How the data were processed

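RNA from laser-microdissected epidermis and mesophyll (4 libraries each, grouped by GEO's labels) was amplified with a SMART-Seq v4 kit and sequenced in pairs without strand. Raw counts, of read pairs for each TAIR10 gene model, are what the authors deposited. Per the methods and the file headers, the authors trimmed reads, removed ribosomal reads with sortMeRNA, aligned with Bowtie2 and counted pairs whose mates hit the same model, dropping equally good multiple matches, which lowers near-identical paralogs. The submitters' processing notes name TopHat2 too. Models at 1 CPM or more in at least 4 libraries were fitted in edgeR 4.0.16 (R 4.3.3; quasi-likelihood, TMM, tissue with replicate number as block, as the study modelled its harvest dates; Benjamini-Hochberg adjustment over 15794 genes). Labels tie no number to a plant or date, so the block is a number in name. Alternatives used edgeR's likelihood ratio test, DESeq2 1.42.0 and limma 3.58.1. Levels are TMM-scaled CPM, with SD over 4 libraries. In the main fit, p-values set the tissue difference against the variation between these libraries that is left after the block. Coordinates and sequences are from the TAIR10.1 annotation, which holds 97.7% of the identifiers. The members and lists were chosen with earlier results of these data known. The text names each member, of each list the called genes and the 3 most abundant others, the 5 genes most like the most abundant member, and others where said.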

Additional observations from a re-analysis of the deposited data

Results flagged for a closer look

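Among 29 groups of 4 libraries that were examined, 5 had a library far from the other 3 by Dixon's criterion (the gap to the nearest other library over the range). The cut used gives about 1 in 20 for normally distributed values. CPM need not be so distributed and was 0 in some libraries, so the number flagged cannot be set against that rate. HSFA2 in epidermis was 3.138 CPM in replicate 1 and 0 in the other 3. HSP90.1 in mesophyll was 38.52 CPM in replicate 1, below the 45.1 to 46.5 of the others. HSP17.6II in mesophyll was 0.3909 CPM in replicate 1, above the 0 to 0.0643 of the others, which rests on 11 pairs. The summed rapid stress and touch markers in epidermis were 349.4 CPM in replicate 2 against 32.7 to 80.8 in the others. The summed epidermis markers in mesophyll were 238.8 CPM in replicate 3 against 637.7 to 704.4 in the others. Of these 5, 3 fell on a library numbered 1.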

How the results depend on the processing

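The counts of called genes depended on the test. Over all genes, 155 were called higher and 16 lower in epidermis; without the replicate block 276 and 85, by the likelihood ratio test 557 and 264, by the bias-adjusted quasi-likelihood test 472 and 161, by DESeq2 786 and 534, and by limma-voom 333 and 164. Without the filter 31 were called lower, and at a filter of 10 CPM 46. Leaving out each replicate number gave 55 to 136 higher and 0 to 16 lower. Without the block, leaving out epidermis libraries 1 to 4 gave 111, 33, 69 and 62 lower, and mesophyll libraries 1 to 4 gave 25, 32, 30 and 29.

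Of the members, 0 were called higher with the block, 1 without the block (HSP17.6II, adjusted p 0.0294), 2 by the likelihood ratio test, 2 by the bias-adjusted test, 2 by DESeq2, 1 by limma-voom, 1 without the filter and 1 without mesophyll replicate 1 and the block; leaving out a replicate number left 0. Of the 5 pathway lists, 1 gene (LEC1) was called higher, 2 by the likelihood ratio, bias-adjusted and limma-voom tests, 4 higher and 1 lower by DESeq2, 2 without epidermis replicate 4 and the block, and 0 to 1 when a replicate number was left out. By replicate number, 28 genes were called by the likelihood ratio test against 0.

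Uncalled log2 fold changes that turned sign were those of HSP101 (0.22 by limma-voom, −1.04 to 0.58 without a replicate number, and without the block 0.05 and 0.18 without the epidermis and the mesophyll library 4), HSP70-4 (−0.02 to 0.25 without a replicate number, and −0.02 without epidermis replicate 1 and the block), HSP17.8 (−1.22 to 1.91 without a replicate number, and without the block −0.08 and −0.09 without epidermis replicate 3 and mesophyll replicate 1), HSP90.2 (−0.41 to 0.09 without a replicate number, and without the block 0.10 and 0.04 without epidermis replicates 1 and 2) and HSP90.3 (−0.02 without epidermis replicate 4 and the block). With reads counted singly the summed mesophyll markers in mesophyll averaged 28597.0 CPM. The cause of these changes was not tested. Under the other scalings the median log2 fold change of all genes was −0.03 and −0.07 against −0.04.

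The replicate numbers were not shown to pair the libraries: the correlation of residuals between the epidermis and mesophyll library of a number was −0.005, −0.025, 0.092 and −0.022, and 1 of the 4 mesophyll libraries matched its own number best. Low counts limit HSFA9, HSP21, HSP22.0 and HSP17.4, which had 13 pairs or fewer in every library. Losses of RNA before sequencing were not measured. HSP17.6II did not pass the filter in the fits that left out 1 epidermis library alone, or at 10 CPM.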
